A study of Mus musculus with 4 samples.

Results

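Expression of 41 autophagy and lysosome genes was followed in the mouse thymic lymphoma line T29, out of 18193 genes that a probe set of the array names alone. They fall into 23 autophagy genes and 18 lysosome genes, listed by symbol, and each was read from the probe set that names only that gene and has the highest mean over the arrays. Affymetrix arrays were hybridised with total RNA from 2 samples treated with 100 nM 4OHT for 24 h and 2 samples treated with ethanol for 24 h. All 4 samples carried the MigR1-MLER construct, an inducible dominant-negative form of Mastermind, a nuclear partner through which Notch activates transcription, and the design text calls the line Ikaros-deficient. 4OHT is the active tamoxifen metabolite that makes proteins fused to an oestrogen receptor domain active. Every sample had the construct, so effects of 4OHT itself and of the induced protein cannot be told apart. T29 is a single line, and whether its replicates are separate cultures is not in the labels. The p-values therefore describe the spread of these 4 samples alone, part or all of which may be technical. As a check of the T-lineage label, of 8 T-cell markers with a probe set Cd3d, Cd3e, Cd3g, Thy1, Cd4 and Cd8a were above the level at which genes were tested, and Cd5 and Cd2 were below it.

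Autophagy delivers cytoplasm to the lysosome. The ULK kinase complex starts it, a lipid kinase complex around Beclin 1 marks the forming membrane, WIPI proteins read that mark, and a ubiquitin-like conjugation system attaches ATG8 proteins (the LC3 and GABARAP families) to the membrane, where they bind cargo receptors such as p62. The lysosome then degrades the cargo with acid hydrolases, in a lumen acidified by the V-ATPase. The transcription factors TFEB and TFE3 switch on many genes of both compartments when the kinase complex mTORC1 is inactive, and developing and activated T cells use autophagy to limit their mitochondria and to survive.

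Of the members, 3 passed the test, and all were higher with 4OHT: Ctsl, which encodes the cysteine protease cathepsin L, Wipi1, which encodes a WIPI protein, and Grn, which encodes the progranulin precursor of lysosomal granulins. Values are log2 expression per probe set as deposited, and changes are 4OHT minus ethanol on that scale with the standard error (SE) of limma. A gene passed at an adjusted p under 0.05, over the 11581 genes above a floor of 4.81, and 40 of the 41 members lay above it. These were 1 of 23 autophagy members and 2 of 17 tested lysosome members, with none lower in either group. The share of members that passed, 7.5% in either direction, was near the background of 7.47% of all tested genes. By direction, 3.9% of all tested genes were higher and 3.57% lower. The remaining 37 tested members did not pass.

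Whether or not they passed, most members lay on the higher side, and the counts that follow include Ctsl, Wipi1 and Grn. The change was above 0 for 31 of 40 tested members (17 of 23 autophagy and 14 of 17 lysosome members), where 47.7% of all tested genes had a change above 0 and 52.3% one below. Among genes above the 60th percentile of brightness, that share was 50.5% for all genes and 30 of 38 for members. Both 4OHT arrays lay above both ethanol arrays for 23 members and below them for 6, against 26.7% and 30.2% of all tested genes. At an unadjusted p under 0.05 in limma, 14 members were higher and none was lower, with a background of 12.3% higher and 13.2% lower. The median change was 0.13 over autophagy members and 0.14 over lysosome members, against -0.012 over all tested genes. These medians leaned on single arrays: the autophagy median was 0.039 without ethanol replicate 1 and 0.25 without ethanol replicate 2, and the lysosome median was 0.11 and 0.20 in the same fits. In these bulk samples, a change in the share of cells that express a gene and a change in RNA per cell cannot be told apart.

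**Figure D1:**
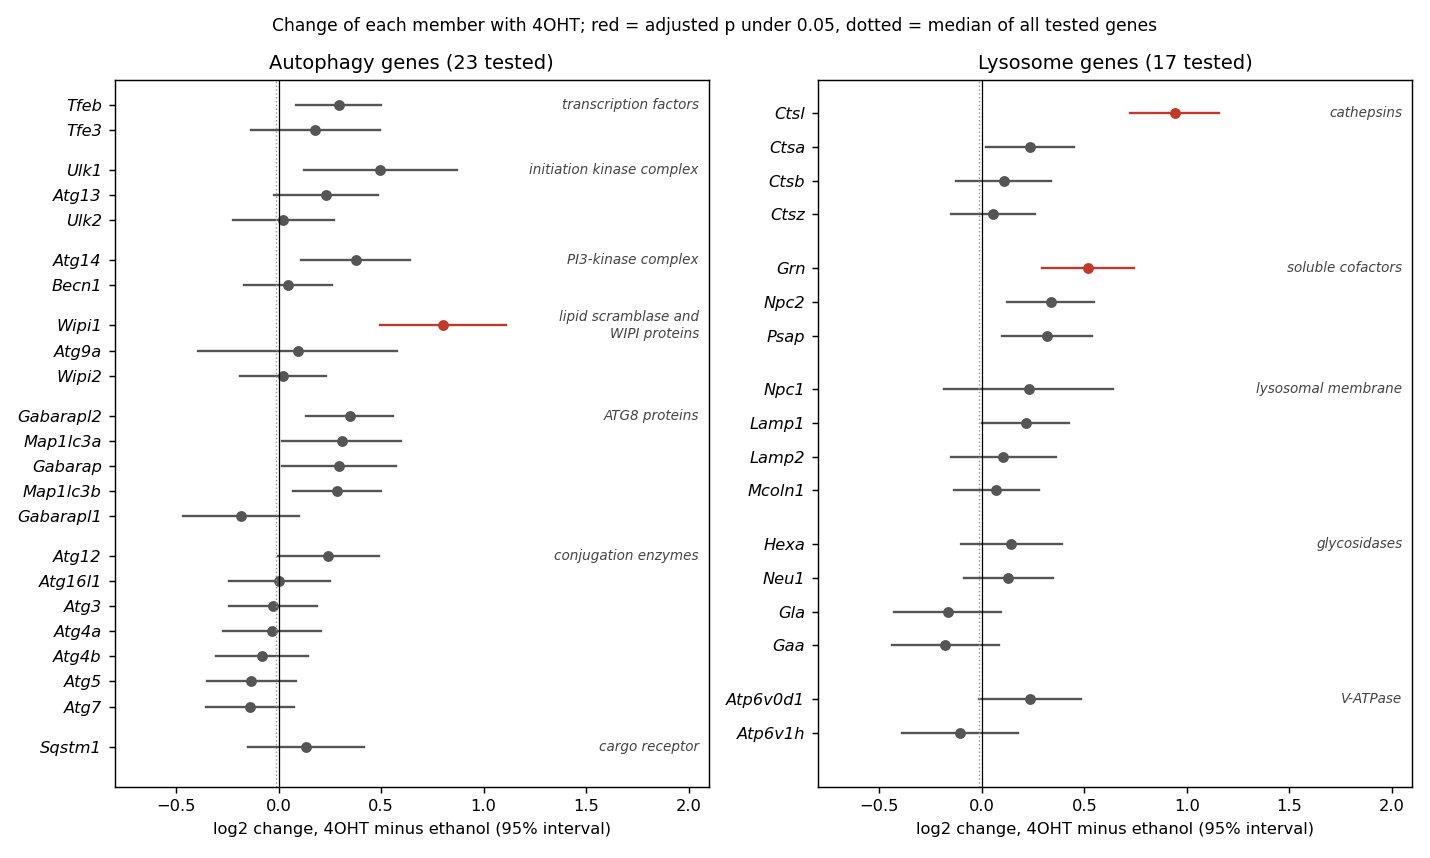
Change of each tested member (log2, 4OHT minus ethanol) with its 95% interval from limma, ordered by role, for autophagy genes on the left and lysosome genes on the right. Ctsl, Wipi1 and Grn, in red, passed the test; 31 of the 40 points lie right of 0.

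The promoters of the 3 members that passed are shown because they allow the elements known to control lysosomal genes to be looked for in them. Sequences are from RefSeq on GRCm38.p6, 5′ to 3′ on the strand of the gene, from 250 bases before an annotated transcript start to 50 bases from it on. Capitals mark matches on either strand to CACGTG (the E-box, which MYC also binds), to TCACGTGA (the core of the CLEAR element bound by TFEB and TFE3, which contains CACGTG) and to TGGGAA (the RBPJ site of Notch targets).
Ctsl, chr13:64370471-64370770 (minus strand): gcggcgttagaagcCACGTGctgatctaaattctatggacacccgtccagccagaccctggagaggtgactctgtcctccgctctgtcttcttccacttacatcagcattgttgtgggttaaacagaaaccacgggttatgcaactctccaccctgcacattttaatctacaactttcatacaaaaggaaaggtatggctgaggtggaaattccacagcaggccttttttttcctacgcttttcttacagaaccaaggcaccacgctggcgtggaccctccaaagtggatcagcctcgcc
Wipi1, chr11:109611340-109611639 (minus strand): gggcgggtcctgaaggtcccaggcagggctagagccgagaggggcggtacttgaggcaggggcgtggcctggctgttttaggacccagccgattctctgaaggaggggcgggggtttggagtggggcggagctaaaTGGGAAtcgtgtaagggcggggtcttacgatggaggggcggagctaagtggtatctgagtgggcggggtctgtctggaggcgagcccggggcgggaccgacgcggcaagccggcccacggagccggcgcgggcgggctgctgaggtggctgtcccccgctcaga
Grn, chr11:102430257-102430556 (plus strand): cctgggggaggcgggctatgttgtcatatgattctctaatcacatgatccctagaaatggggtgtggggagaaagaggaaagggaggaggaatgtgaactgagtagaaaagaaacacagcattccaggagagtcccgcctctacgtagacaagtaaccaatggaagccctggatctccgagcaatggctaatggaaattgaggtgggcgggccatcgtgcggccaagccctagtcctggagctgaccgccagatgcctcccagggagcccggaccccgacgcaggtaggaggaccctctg
The Ctsl window holds an E-box that begins 236 bases before the start, the Wipi1 window holds TGGGAA 114 bases before it, and the Grn window holds none of the 3 motifs.

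A promoter window was found for 34 of the 41 members, and those of Atg12, Atg16l1, Atp6v1h, Becn1, Ctsb, Map1lc3a and Npc1 were not used here. TCACGTGA was present in 5 of the 34 members (14.7%), 1 autophagy and 4 lysosome genes, against 1.12% of all 27025 genes of the table. CACGTG was present in 11 members (32.4%), against 8.09% of all genes. TGGGAA was present in 10 members (29.4%), against 28.3%. TCACGTGA was looked for because of its known tie to lysosomal genes, so its larger share is not a finding of these arrays. The 5 windows with TCACGTGA are shown because they carry the element most closely tied to this gene class.
Ctsa, chr2:164833523-164833822 (plus strand): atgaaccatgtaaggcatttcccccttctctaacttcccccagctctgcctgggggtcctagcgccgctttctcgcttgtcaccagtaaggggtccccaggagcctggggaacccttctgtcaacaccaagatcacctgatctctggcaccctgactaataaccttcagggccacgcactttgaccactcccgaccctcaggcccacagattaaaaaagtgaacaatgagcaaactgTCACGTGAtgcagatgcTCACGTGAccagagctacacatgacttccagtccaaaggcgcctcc
Mcoln1, chr8:3500269-3500568 (plus strand): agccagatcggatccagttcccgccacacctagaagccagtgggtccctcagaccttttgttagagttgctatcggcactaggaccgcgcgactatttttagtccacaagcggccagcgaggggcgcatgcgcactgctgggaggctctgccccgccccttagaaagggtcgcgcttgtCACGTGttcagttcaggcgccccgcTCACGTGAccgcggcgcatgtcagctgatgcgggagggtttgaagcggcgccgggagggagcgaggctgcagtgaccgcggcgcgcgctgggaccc
Atp6v0d1, chr8:105566015-105566314 (minus strand): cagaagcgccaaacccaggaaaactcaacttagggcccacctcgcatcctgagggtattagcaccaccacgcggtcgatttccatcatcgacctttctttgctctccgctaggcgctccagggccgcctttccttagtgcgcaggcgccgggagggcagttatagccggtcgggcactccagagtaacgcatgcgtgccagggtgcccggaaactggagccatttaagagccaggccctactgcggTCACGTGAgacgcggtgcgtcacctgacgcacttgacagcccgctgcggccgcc
Gla, chrX:134600956-134601255 (minus strand): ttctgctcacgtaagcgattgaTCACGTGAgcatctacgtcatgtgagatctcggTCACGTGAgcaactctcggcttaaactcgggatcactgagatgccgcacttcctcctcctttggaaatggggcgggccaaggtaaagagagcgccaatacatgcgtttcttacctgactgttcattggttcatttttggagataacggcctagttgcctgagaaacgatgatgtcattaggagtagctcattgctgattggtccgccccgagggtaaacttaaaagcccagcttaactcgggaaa
Atg3, chr16:45158579-45158878 (plus strand): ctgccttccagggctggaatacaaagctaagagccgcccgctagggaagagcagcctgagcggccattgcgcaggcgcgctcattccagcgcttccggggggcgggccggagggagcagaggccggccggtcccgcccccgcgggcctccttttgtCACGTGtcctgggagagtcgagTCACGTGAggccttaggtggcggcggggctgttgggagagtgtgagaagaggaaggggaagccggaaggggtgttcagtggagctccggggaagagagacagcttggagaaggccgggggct
In Ctsa and Gla the element occurs at 2 places each. The changes of these 5 genes, none of which passed, were 0.23 for Ctsa, 0.071 for Mcoln1, 0.24 for Atp6v0d1, -0.17 for Gla and -0.028 for Atg3. The match of a motif is a description of the sequence, and no binding was measured.

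Neither transcription factor gene passed. Tfeb was at 7.23 and 7.19 with 4OHT, against 6.91 and 6.92 with ethanol. Its groups did not overlap, and the change was 0.29 ± 0.08 SE (1.23-fold, limma adjusted p = 0.1). Tfe3 was at 8.02 and 7.99 with 4OHT, against 7.66 and 7.98 with ethanol, so that its groups were separated by less than the gap between the ethanol arrays (0.18 ± 0.13, limma adjusted p = 0.422).

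Among the genes that start an autophagosome, Ulk1, the kinase at the head of the pathway, had the largest change that did not pass. It was at 8.94 and 8.71 with 4OHT, against 8.15 and 8.50 with ethanol. The groups did not overlap, but the ethanol arrays differed by much of that distance (0.50 ± 0.15, limma adjusted p = 0.112; 0.32 without ethanol replicate 1). Its partner Atg13 had a change of 0.23 (adjusted p = 0.226) and its paralogue Ulk2 one of 0.022 (adjusted p = 0.913). Atg14, which directs the lipid kinase complex to autophagosomes, was at 7.51 and 7.28 with 4OHT, against 7.03 and 7.01 with ethanol (0.38 ± 0.11, limma adjusted p = 0.0992). Becn1, which encodes the Beclin 1 scaffold of the same complex, was at 10.67 and 10.61 with 4OHT, against 10.57 and 10.62 with ethanol. Its groups overlapped, and the 95% interval of its change ran from -0.17 to 0.26.

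Wipi1 encodes a protein that binds the lipid mark of the forming membrane. It was at 8.03 and 8.33 with 4OHT, against 7.34 and 7.42 with ethanol. Both 4OHT arrays lay well above both ethanol arrays, and the means were 8.18 ± 0.21 and 7.38 ± 0.055 (SD, n = 2 each). Wipi1 rose 1.74-fold (0.80 ± 0.12 SE, limma adjusted p = 0.0279). Its call was lost whichever array was left out. Such fits have 1 residual degree of freedom and call far fewer genes over the whole array, so this loss is not particular to Wipi1. The change of Wipi1 was 0.95 without 4OHT replicate 1 and 0.65 without 4OHT replicate 2. The paralogue Wipi2 was at 8.66 and 8.67 with 4OHT, against 8.61 and 8.67 with ethanol, with an interval of -0.19 to 0.23. Atg9a, which encodes a lipid scramblase, varied most between replicates among the autophagy members, with values of 7.53 and 7.29 with 4OHT, against 7.05 and 7.58 with ethanol.

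Of the 5 genes of the ATG8 proteins, 4 had both 4OHT arrays above both ethanol arrays and 1 had them below. The shares of all tested genes were 26.7% and 30.2%, and none of the 5 passed the test. Gabarapl2 was at 10.35 and 10.29 with 4OHT, against 9.99 and 9.96 with ethanol (0.35 ± 0.08, limma adjusted p = 0.0718; 0.17 with probe sets averaged). Map1lc3b, the LC3 gene most often read as a marker of autophagy, was at 11.21 and 11.16 with 4OHT, against 10.93 and 10.87 with ethanol (0.29 ± 0.09, limma adjusted p = 0.11). In both genes the gap between groups was several times that between replicates. Map1lc3a was at 9.38 and 9.55 with 4OHT, against 9.05 and 9.26 with ethanol (0.31 ± 0.12, limma adjusted p = 0.176, and 0.20 without ethanol replicate 1), and Gabarap had a change of 0.30 (adjusted p = 0.174). Gabarapl1 stood apart on the lower side, at 5.27 and 5.12 with 4OHT, against 5.27 and 5.48 with ethanol. All its values are close to the floor of 4.81, and the change of -0.18 ± 0.11 did not pass (limma adjusted p = 0.364).

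The conjugation enzymes that attach and remove these proteins showed small differences. The changes of the 7 genes ran from -0.14 for Atg7 to 0.24 for Atg12, with a median of -0.032, and none passed. Both 4OHT arrays lay below both ethanol arrays for Atg4b, Atg5 and Atg7, above them for Atg12, and the groups overlapped for Atg3, Atg4a and Atg16l1. Of all tested genes, 30.2% lay below in this way and 26.7% above. Atg7, the activating enzyme of the system, was at 7.47 and 7.54 with 4OHT, against 7.67 and 7.61 with ethanol, and its 95% interval ran from -0.35 to 0.076. Sqstm1, which encodes the cargo receptor p62, was at 10.47 and 10.64 with 4OHT, against 10.32 and 10.52 with ethanol. Its groups overlapped (0.13 ± 0.11, limma adjusted p = 0.505).

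**Figure D2:**
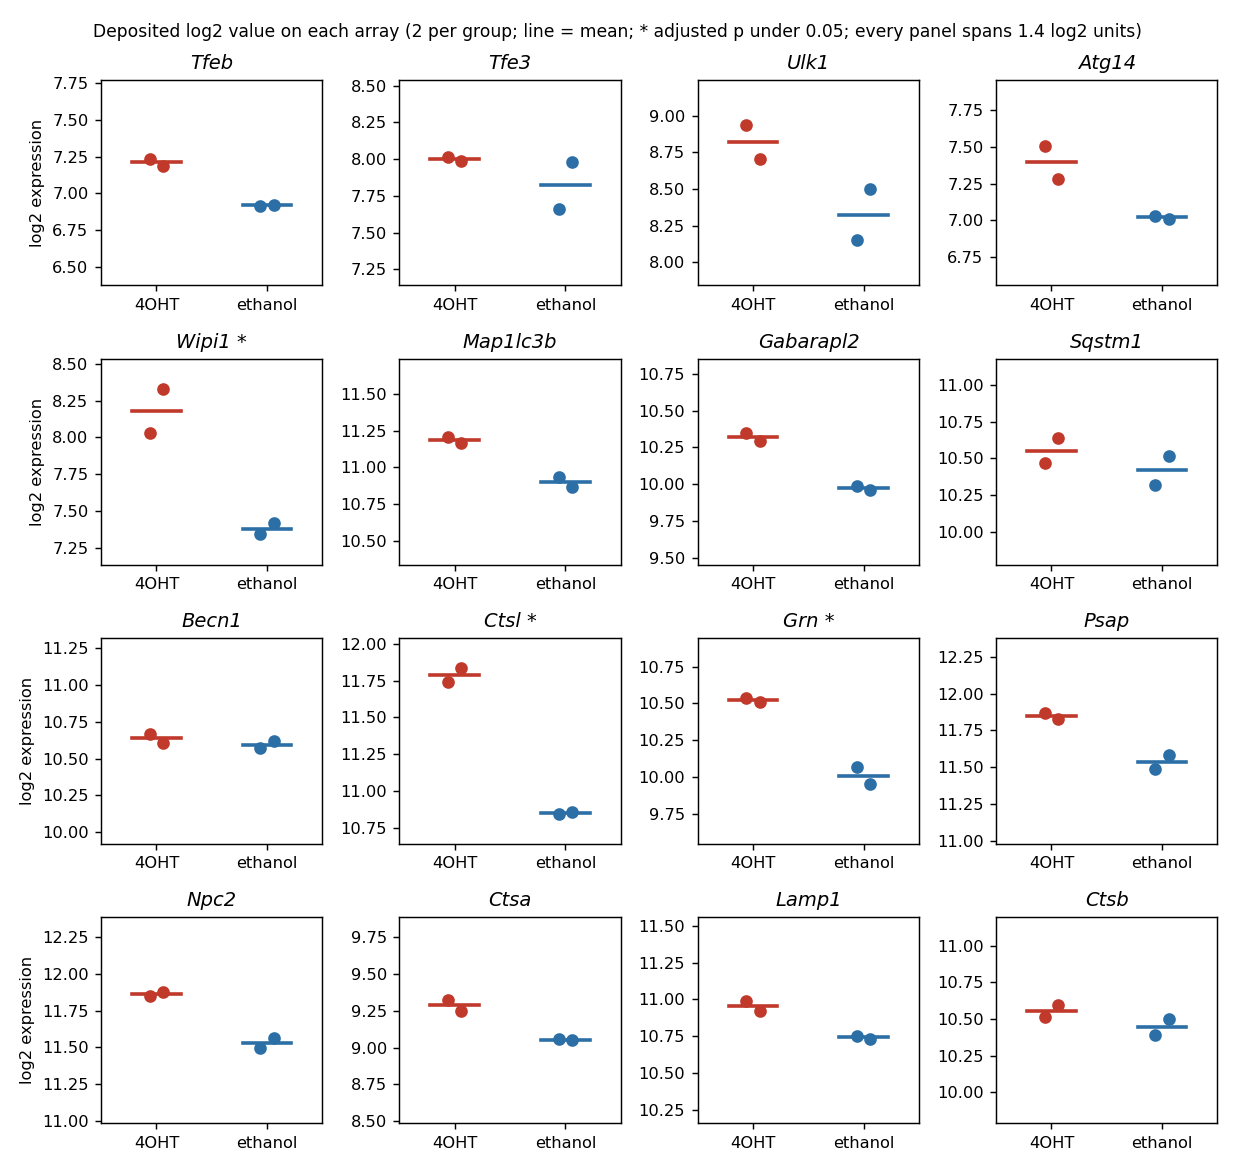
Deposited log2 value of 16 members on each array, with 4OHT in red and ethanol in blue, 2 arrays per group, lines at the means and the same span in every panel. Ctsl, Wipi1 and Grn show the widest gaps between groups, while the groups overlap for Sqstm1 and Becn1.

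The largest change of all members was that of Ctsl, in the lysosomal proteases. It was at 11.74 and 11.84 with 4OHT, against 10.84 and 10.86 with ethanol. The gap between groups was about as wide on every pairing of arrays, and the means were 11.79 ± 0.070 and 10.85 ± 0.011 (SD, n = 2 each). Ctsl rose 1.92-fold (0.94 ± 0.09 SE, limma adjusted p = 0.0109). It kept its call without ethanol replicate 1 and without ethanol replicate 2, but not without 4OHT replicate 1 or 4OHT replicate 2. Its change in the last 2 of these fits was 0.99 and 0.89. Fits with an array left out call far fewer genes over the whole array.

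None of the other cathepsins among the members passed. Ctsb, another cysteine protease, was at 10.51 and 10.59 with 4OHT, against 10.39 and 10.50 with ethanol (0.11 ± 0.09, limma adjusted p = 0.518). Ctsa, a carboxypeptidase that also protects neuraminidase, was at 9.33 and 9.25 with 4OHT, against 9.06 and 9.05 with ethanol (0.23 ± 0.09, limma adjusted p = 0.166; 0.12 with probe sets averaged). Ctsz had a change of 0.055, with a 95% interval of -0.15 to 0.26. Ctss was not tested: it was at 3.08 and 3.08 with 4OHT, against 3.33 and 3.25 with ethanol, all below the floor.

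All 3 soluble cofactors of the lysosome had both 4OHT arrays above both ethanol arrays, against 26.7% of all tested genes. Grn was at 10.54 and 10.51 with 4OHT, against 10.07 and 9.95 with ethanol. The groups were separated by more than the spread within either, and Grn rose 1.43-fold (0.52 ± 0.09 SE, limma adjusted p = 0.0331). This call too was lost with any array left out, in fits that call far fewer genes over the whole array. The change of Grn was 0.50 without 4OHT replicate 1 and 0.53 without 4OHT replicate 2. Npc2, which carries cholesterol in the lumen, was at 11.85 and 11.88 with 4OHT, against 11.50 and 11.56 with ethanol (0.34 ± 0.08, limma adjusted p = 0.0789). Psap, the precursor of the saposins that present lipids to hydrolases, was at 11.87 and 11.83 with 4OHT, against 11.49 and 11.58 with ethanol (0.32 ± 0.09, limma adjusted p = 0.0952).

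Membrane proteins, pump subunits and glycosidases did not pass. Lamp1, which encodes the most abundant class of lysosomal membrane glycoprotein, was at 10.99 and 10.92 with 4OHT, against 10.75 and 10.73 with ethanol (0.21 ± 0.08, limma adjusted p = 0.195). Mcoln1, the calcium channel of the lysosome, was at 7.95 and 7.95 with 4OHT, against 7.88 and 7.89 with ethanol. Its arrays agreed closely within each group, and the interval of its change ran from -0.13 to 0.28. Lamp2 had a change of 0.10 with overlapping groups in the probe set used. Its dimmer probe sets gave 0.14, 0.28 and 0.41, the last with a limma adjusted p of 0.0938 in a fit of all probe sets. Npc1, the membrane cholesterol transporter and the most variable lysosome member between replicates, had a change of 0.23.

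Changes of the V-ATPase members had opposite signs, except with probe sets averaged per gene, where that of Atp6v1h was 0.12. Atp6v0d1, of the membrane sector, was at 10.38 and 10.20 with 4OHT, against 10.03 and 10.08 with ethanol (0.24 ± 0.10, limma adjusted p = 0.215; 0.15 without 4OHT replicate 1). Atp6v1h, of the cytosolic sector, was at 9.69 and 9.87 with 4OHT, against 9.98 and 9.80 with ethanol, and its groups overlapped (-0.11 ± 0.11, limma adjusted p = 0.594). Of the glycosidases, Hexa (0.14) and Neu1 (0.13) lay higher with 4OHT and Gla (-0.17) and Gaa (-0.18) lower, each without overlap of the groups and with an adjusted p of at least 0.342.

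Other probe sets of the same genes were read as a check on the 3 that passed. In a fit of all probe sets above the floor, 4.02% of 20967 probe sets were called, and 4 of the 84 that belong to members were among them. For Wipi1, the probe set used (1439060_s_at) and a further one (1424917_a_at) were both called, and the further one read 6.81 and 7.15 with 4OHT against 5.78 and 5.73 with ethanol, a change of 1.22 (adjusted p = 0.0229). Another Wipi1 probe set (1427323_s_at) gave 6.19 and 6.29 with 4OHT, against 6.23 and 6.33 with ethanol, a difference of -0.039 with overlapping groups, and a dimmer one differed by 0.94 without passing (adjusted p = 0.0734). The Wipi1 and Grn probe sets used are of kinds marked for possible cross-hybridisation. With such probe sets left out, both genes still passed, Wipi1 with a change of 1.22 (adjusted p = 0.0144) and Grn with one of 0.66 (adjusted p = 0.0327). All 3 Grn probe sets lay higher with 4OHT, by 0.52, 0.46 and 0.66, and the dimmest of them (1448148_at) passed in that fit (adjusted p = 0.0474), while the one used (1438629_x_at) did not (adjusted p = 0.0539). Ctsl was read from 1451310_a_at, which was called in that fit too (adjusted p = 0.0218). Its other probe set was dim and its replicates differed widely, at 5.04 and 5.99 with 4OHT, against 4.61 and 5.17 with ethanol. With the mean of both, the change of Ctsl was 0.78 and missed the threshold (adjusted p = 0.0698). The 3 bright Map1lc3b probe sets gave 0.29, 0.34 and 0.43. Over all members, 25 had more than 1 probe set above the floor; in 14 of them every probe set changed with the same sign, and in 11 the signs differed, of which Wipi1 had a called probe set.

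**Figure D3:**
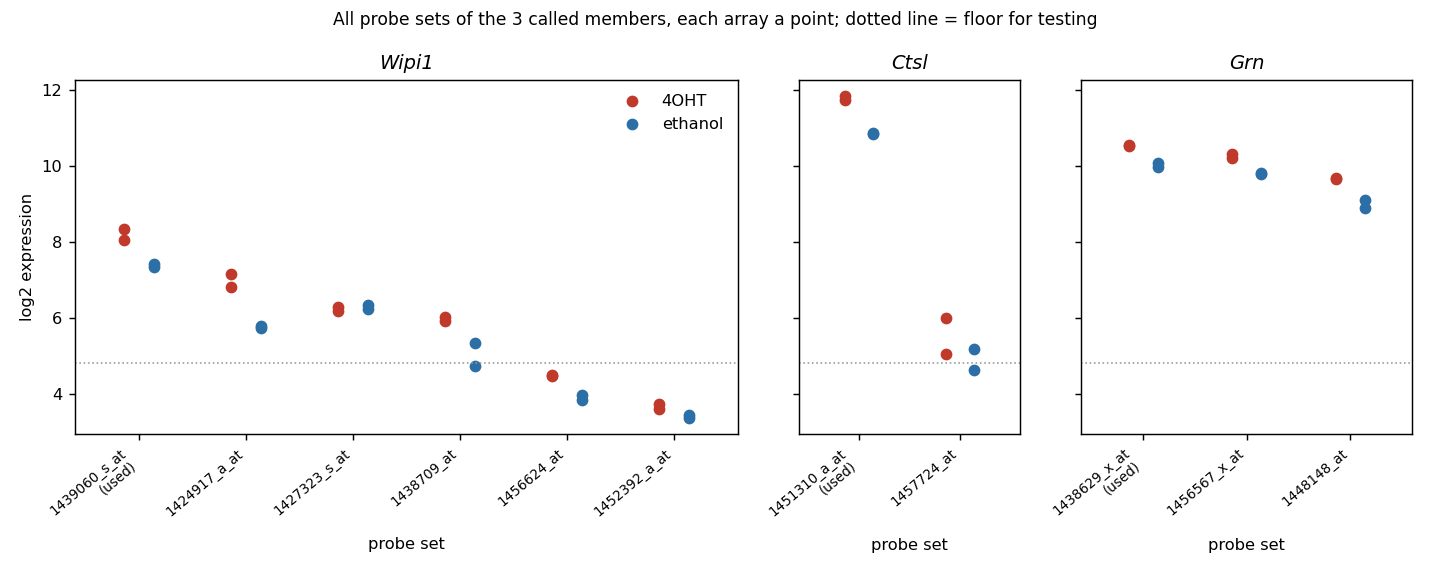
Log2 value of every probe set of Wipi1, Ctsl and Grn on each array, 4OHT in red beside ethanol in blue, ordered by brightness, with the testing floor as a dotted line. All 3 Grn probe sets separate the groups, while the groups overlap for 1 Wipi1 probe set (1427323_s_at) and the dim Ctsl probe set.

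Further genes of the same pathways were taken from 5 lists of textbook members outside the 41. Like the members, these lists were chosen with earlier results of these data known. Of 134 tested, 8 were higher (5.97%) and 2 lower (1.49%), against 3.9% and 3.57% of all tested genes, and 95 had a change above 0. Among other autophagy genes, 2 of 29 were higher and none lower, with a median change of 0.053. Tecpr1, which tethers autophagosomes to lysosomes, was at 9.41 and 9.25 with 4OHT, against 8.32 and 8.58 with ethanol (1.84-fold, 0.88 ± 0.12, limma adjusted p = 0.0232). With probe sets averaged its change was 0.49 and passed (adjusted p = 0.0323). The cargo receptor gene Nbr1 was at 10.59 and 10.53 with 4OHT, against 10.12 and 10.17 with ethanol, and only just passed (0.41 ± 0.09, limma adjusted p = 0.0497; 0.0522 with each array centred on its median and 0.0709 without the floor).

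Among other lysosomal hydrolases and cofactors, 3 of 35 were higher (8.57%) and none was lower, against 3.9% and 3.57% of all tested genes. The median was 0.19. At an unadjusted p under 0.05 in limma, 10 were higher and 3 lower, against 12.3% and 13.2%. All 3 that passed were cathepsins, but Ctse did not pass (0.61, limma adjusted p = 0.0789) and Ctsc lay lower (-0.34, limma adjusted p = 0.211). Ctsf, Ctsh and Ctsk were below the floor. Ctsw, a protease of cytotoxic lymphocytes, was at 7.65 and 7.56 with 4OHT, against 6.74 and 6.84 with ethanol (1.76-fold, limma adjusted p = 0.0154). Ctso was at 6.95 and 7.18 with 4OHT, against 6.37 and 6.29 with ethanol (1.66-fold, limma adjusted p = 0.0268). Ctsd, an aspartic protease, was at 10.35 and 10.32 with 4OHT, against 9.86 and 9.88 with ethanol (1.38-fold, limma adjusted p = 0.0359). In each of these the groups lay clearly apart.

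Among other lysosomal membrane and sorting genes, 2 of 28 were higher (7.14%) and none lower, against 3.9% and 3.57% of all tested genes. The median was 0.11. Mcoln3, a cation channel related to Mcoln1, was at 6.31 and 6.57 with 4OHT, against 5.54 and 5.67 with ethanol (1.78-fold, limma adjusted p = 0.0241). Laptm5, which encodes a lysosomal protein of blood cells that lowers T-cell receptor levels, was at 12.05 and 11.97 with 4OHT, against 11.49 and 11.18 with ethanol (1.60-fold, limma adjusted p = 0.0376). That probe set is marked for possible cross-hybridisation, and with such probe sets left out Laptm5 had a change of -0.22 (adjusted p = 0.237). No other V-ATPase subunit of 16 passed in limma. At an unadjusted p under 0.05, Atp6v1d and Atp6ap1 were higher, 2 of 16 against 12.3% of all tested genes. Atp6v1d was at 10.62 and 10.74 with 4OHT, against 10.36 and 10.30 with ethanol (0.35 ± 0.09, limma adjusted p = 0.0825). Atp6v1g2 was at 5.97 and 5.38 with 4OHT, against 5.22 and 5.19 with ethanol, and its change of 0.47 (limma adjusted p = 0.21) was 0.17 without 4OHT replicate 1 and 0.76 without 4OHT replicate 2.

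Of 26 tested genes of mTORC1 and its control of TFEB, 1 was higher (3.85%) and 2 were lower (7.69%). The shares of all tested genes were 3.9% and 3.57%. Deptor, an inhibitor bound to mTOR, was at 6.01 and 6.32 with 4OHT, against 7.01 and 7.06 with ethanol, and fell 1.82-fold (-0.87 ± 0.13, limma adjusted p = 0.025). Rragd, a GTPase that recruits mTORC1 and TFEB to the lysosome, was at 7.21 and 7.53 with 4OHT, against 8.10 and 8.09 with ethanol, and fell 1.65-fold (-0.72 ± 0.13, limma adjusted p = 0.0349). With the mean of its probe sets Rragd had a change of -0.30 (adjusted p = 0.153). Sesn3, a sestrin that restrains mTORC1, was at 9.03 and 9.08 with 4OHT, against 8.54 and 8.47 with ethanol, and rose 1.46-fold (0.55 ± 0.09, limma adjusted p = 0.0295). With single arrays left out, the calls over the 5 lists together fell to 2 higher and none lower without ethanol replicate 2 (Tecpr1 and Ctsw), and to none in either direction without any of the other 3 arrays.

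**Figure D4:**
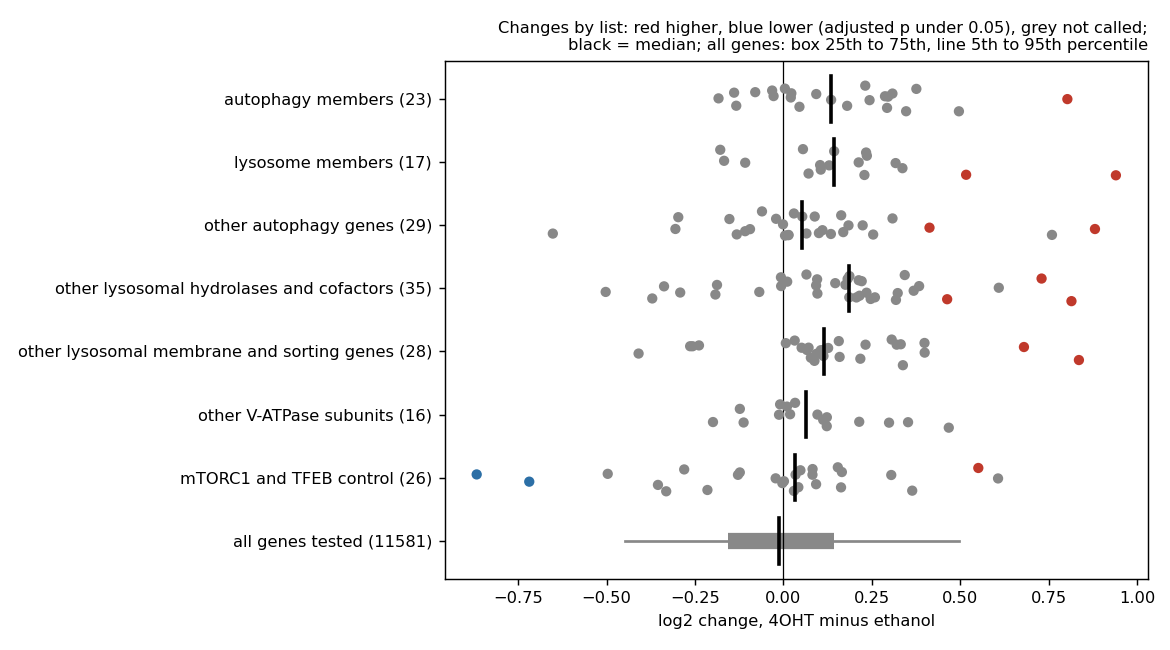
Log2 change, 4OHT minus ethanol, of every tested gene in the members' groups and the 5 further lists, with the median as a black line and all tested genes as a box at the bottom. The medians of the member groups (0.13 and 0.14) lie above that of all genes (-0.012), and the mTORC1 list is the only list shown with genes called lower.

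Arrays correlated at 0.995 within either group and at 0.983 to 0.987 between groups over tested genes.  Of 14 macrophage and myeloid markers, 11 were below the floor, among them Adgre1, Lyz2, Cd68, Mpeg1, Itgam and Fcgr3, and none of the 3 above it was called. Both 4OHT arrays lay above both ethanol arrays for 3 of the 14, below them for 5, and the groups overlapped for 6. Itgam, below the floor, was at 4.83 and 4.79 with 4OHT, against 4.10 and 3.96 with ethanol. Cd14, above it, was at 6.02 and 5.97 with 4OHT, against 6.37 and 6.34 with ethanol (limma adjusted p = 0.0616). The summed linear level of that list was 328.3 and 320.6 with 4OHT, against 332.1 and 334.1 with ethanol, and without Cd14, its brightest member, 263.6 and 258.1 with 4OHT, against 249.2 and 252.8 with ethanol. Most of its terms are values below the floor. In the granulocyte and mast cell list, 4 of 6 markers were below the floor, and 1, Cpa3, a carboxypeptidase gene, was higher with 4OHT, at 10.23 and 10.16 with 4OHT, against 8.20 and 7.89 with ethanol. The sum of that list was 1298 and 1234 with 4OHT, against 402.2 and 343.5 with ethanol, and without Cpa3 it was 99.6 and 91.8 with 4OHT, against 108.1 and 106.2 with ethanol. The other gene of the list above the floor, Camp, was at 5.17 and 4.88 with 4OHT, against 5.36 and 5.32 with ethanol (limma adjusted p = 0.177). Lists of B and dendritic cell markers and of stromal markers had no called gene among the 2 and 3 members above the floor. Of the 6 T-cell markers above the floor, Cd8a rose 1.78-fold (limma adjusted p = 0.0347) and Cd3g fell 1.48-fold (limma adjusted p = 0.0356), and Cd4 had a change of 0.66 (limma adjusted p = 0.0563). The 3′ minus 5′ difference of the 18S ribosomal RNA control also moved with the groups, at 0.90 and 0.82 with 4OHT, against 0.051 and 0.32 with ethanol. For the mRNA controls Actb and Gapdh, where it is a measure of RNA quality, the 4OHT arrays lay between the ethanol arrays. Actb was at 0.43 and 0.45 with 4OHT, against 0.40 and 0.49 with ethanol. Gapdh was at -0.030 and -0.033 with 4OHT, against -0.068 and 0.030 with ethanol. The part of the Cpa3, T-cell marker and 18S differences in the results was not tested.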

How the data were processed

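Total RNA of 4 T29 samples was read on Affymetrix arrays. The authors deposited log2 expression values, 1 per probe set, made with RMA per the submitters' processing notes; no version is named there. That the scale is log2 rests on the values (2.25 to 14.6, array medians 5.12 to 5.14). RMA gives no detection call. The precision is limited by the number of arrays. Of 45101 probe sets, 34945 name 1 gene in the platform annotation, 932 several and 9224 none, controls included. Each gene was read from its brightest probe set. A floor at the 40th percentile of named probe sets, 4.81, left 11581 genes to test.

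The test was limma's (version 3.58.1, R 4.3.3), with lmFit and eBayes on 2 arrays a group and no block, adjusted by Benjamini-Hochberg over all tested genes. The genes given with their values were those that passed, the 4 largest changes that did not in each group, 12 chosen by name and those whose probe sets differed in sign with 1 called, and of each further list up to 4 that passed or else the 2 largest; Atg7, Atg9a, Wipi2, Ctss, Atp6ap1, the markers and those given by change alone were added after their values were seen. Members and lists were chosen with earlier results of these data known. Promoter windows are from RefSeq, GRCm38.p6. Alternatives covered the floor, the scaling, the probe set rule, the variance prior, the threshold, a replicate block and each array left out; the fit of all probe sets was chosen after seeing the data.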

Additional observations from a re-analysis of the deposited data

How the results depend on the processing

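In every alternative run, the median change of both groups stayed above 0, no member was called lower, and Ctsl, Wipi1 and Grn stayed higher with 4OHT. With 1 array left out, the called members ranged from 0 to 0 (autophagy, higher) and from 0 to 1 (lysosome, higher), the 5 further lists from 0 to 2 higher and from 0 to 0 lower, and all genes from 9 to 125 higher and from 12 to 66 lower. The medians ranged from 0.039 to 0.25 (autophagy) and from 0.11 to 0.20 (lysosome). These fits have 1 residual degree of freedom, so fewer calls follow from their construction. The numbers of replicates are not said to pair samples, although same-numbered deviations correlated at 0.343. With the replicate block, 4 autophagy members, 3 lysosome members (not over 1.5 times the 2 without it), 19 and 8 genes of the further lists and 1104 and 1031 of all genes were called higher and lower. A filter at the 60th percentile called 2 of 22 autophagy members higher, against 500 higher and 508 lower of all 8356 genes left. An intensity trend with a robust prior called 3 autophagy members, 4 lysosome members and 15 further genes higher, and 4 further genes lower. Of all genes, it called 679 higher and 666 lower. The trend without that prior called as many members and further genes higher, and 636 of all genes lower. Calls over all 11581 genes thus rose with the robust prior too, from 452 higher and 413 lower in the main fit. Whether the member counts rose by more than the calls over all genes was not tested. The larger member counts alone are not read as a result about the members. At an adjusted p under 0.10, 4 autophagy members, 4 lysosome members and 19 further genes were higher, 4 further genes lower, and 853 and 824 of all genes higher and lower. With probe sets averaged per gene, 1 lysosome member was higher, 1 further gene lower, and the lysosome median was 0.20. The sign turned for Atp6v1h with that mean (0.12) and for Laptm5 without _x_at and _s_at probe sets (-0.22). The cause was not tested. Of the uncalled members named, Gabarapl2, Npc2, Psap and Map1lc3b passed with an intensity trend, and Ulk1, Atg14, Gabarapl2 and Npc2 with the block. Dim probe sets such as those of Gabarapl1 and Ctss limit what can be read for these genes.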
